A study of Drosophila melanogaster with 40 samples.

Results

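The regions described here are stretches of the Drosophila melanogaster genome where binding of the GAGA factor (GAF) was called in wild-type embryos and not in embryos from dPCIF1 mutant mothers. The peaks of the 4 GAF lists were merged wherever they overlapped by at least 1 bp, which gave 8083 merged regions. Of these, 623 regions (7.71%) held a peak in both wild-type lists and in neither mutant list. They are called lost regions below. They were selected on the called peaks themselves, so their number and their absence from the mutant lists are descriptions and carry no test. Merged regions with a peak in all 4 lists are called kept (3727 regions), and those called in both mutant replicates but in no wild-type replicate are called gained (375 regions). The remaining regions had a peak in other combinations of the lists.

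Chromatin immunoprecipitation and sequencing (ChIP-seq) was carried out on embryos labelled 0.5-1.5 h. GAF and Zelda were precipitated from M-Z+ dPCIF1 mutant embryos, whose mothers lacked dPCIF1 and whose paternal copy of the gene was wild type, and from wild-type embryos. dPCIF1, HIRA and RNA polymerase II phosphorylated at serine 5 (Pol II-Ser5P) were precipitated from wild-type embryos alone. Each of these 7 groups had 2 replicates, made from separate collections of hand-selected whole embryos. Wild type was the w1118 strain per the methods, which describe CRISPR null alleles of dPCIF1 and a deficiency, and the sources used here do not give the allele carried by the ChIP embryos. The labels give GAF and Zelda one common input in each genotype and replicate, so a property of an embryo pool that the GAF and Zelda libraries share and an effect of the genotype cannot be told apart. The GAF lists held 6499 and 5222 peaks in mutant embryos, against 6090 and 6439 peaks in wild-type embryos, so the shortest GAF list was that of mutant replicate 2. The lists give the position of each peak without its height, and the depth behind them is unknown. A region can drop out of a list through binding in fewer nuclei, through weaker binding in each nucleus or through a less sensitive library, and these cannot be told apart.

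GAF, encoded by Trithorax-like, is a zinc finger protein that binds runs of alternating G and A and helps to open chromatin at promoters and enhancers, among them those of heat shock and Hox genes. It is deposited maternally and acts in zygotic genome activation after Zelda, the pioneer factor that recognises CAGGTA and related sites in the earliest embryo. HIRA is the chaperone that deposits the histone variant H3.3, and dPCIF1 is the fly homologue of a cap methyltransferase that binds the phosphorylated tail of RNA polymerase II.

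Many lost regions carried GAGAG, the core of the GAF site, and a few carried long GA repeats. The windows below are 200 bases around the midpoint, read from the RefSeq copy of dm6 on its plus strand and written 5′ to 3′, with matches to GAGAG (or CTCTC on this strand) and to CAGGTA (or TACCTG) in capitals. The first 4 are shown because they are among the lost regions with the most GAGAG matches, 20, 14, 13 and 13 counting overlaps. The Nlg4 window (chr3R:20204591-20204790) is intergenic and lies at the promoter, 118 bp from the transcription start site (TSS) of Nlg4, which encodes a neuroligin of the synapse. The other windows lie in introns of Efa6 (chr3R:22598324-22598523), an exchange factor of the Arf family, of Hr38 (chr2L:20705968-20706167), a nuclear receptor of the NR4A type, and of Glut4EF (chr3R:9952910-9953109).
Nlg4, lost: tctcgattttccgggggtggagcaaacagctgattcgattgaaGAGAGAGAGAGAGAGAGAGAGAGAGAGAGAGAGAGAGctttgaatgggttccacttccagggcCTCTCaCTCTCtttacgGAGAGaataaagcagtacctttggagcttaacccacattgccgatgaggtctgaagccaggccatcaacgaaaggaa
Efa6, lost: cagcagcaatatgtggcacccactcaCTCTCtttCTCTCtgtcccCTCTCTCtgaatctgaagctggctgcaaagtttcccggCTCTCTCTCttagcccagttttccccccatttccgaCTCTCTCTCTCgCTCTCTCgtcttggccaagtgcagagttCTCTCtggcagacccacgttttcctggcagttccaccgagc
Hr38, lost: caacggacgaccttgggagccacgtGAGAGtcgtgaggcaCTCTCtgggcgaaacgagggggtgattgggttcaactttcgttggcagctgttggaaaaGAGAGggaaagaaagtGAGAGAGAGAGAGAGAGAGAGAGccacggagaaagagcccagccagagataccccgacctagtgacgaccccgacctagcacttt
Glut4EF, lost: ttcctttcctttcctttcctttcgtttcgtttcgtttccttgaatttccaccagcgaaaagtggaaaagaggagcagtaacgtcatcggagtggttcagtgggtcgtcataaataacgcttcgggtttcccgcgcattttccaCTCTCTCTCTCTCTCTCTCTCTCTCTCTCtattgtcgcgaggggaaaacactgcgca

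The next windows show lost regions with both motifs. The intron of pros (chr3R:11345619-11345818), a homeodomain factor of neural cell fate, held 1 match of each, and the intron of scrib (chr3R:26568355-26568554), a cell polarity gene, held 3 GAGAG matches and 1 CAGGTA match. The ftz promoter (chr3R:6864062-6864261) was added after its values were seen, because ftz was the only gene of the early patterning lists with a lost region. Its window held 1 match of each motif.
pros, lost: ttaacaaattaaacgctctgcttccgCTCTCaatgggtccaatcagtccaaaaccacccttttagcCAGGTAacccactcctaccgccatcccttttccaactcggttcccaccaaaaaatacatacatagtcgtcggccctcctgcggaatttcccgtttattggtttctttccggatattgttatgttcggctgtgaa
scrib, lost: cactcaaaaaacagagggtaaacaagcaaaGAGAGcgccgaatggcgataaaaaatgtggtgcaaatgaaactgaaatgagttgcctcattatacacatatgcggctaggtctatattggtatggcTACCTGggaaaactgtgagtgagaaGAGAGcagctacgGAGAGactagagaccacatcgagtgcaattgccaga
ftz, lost: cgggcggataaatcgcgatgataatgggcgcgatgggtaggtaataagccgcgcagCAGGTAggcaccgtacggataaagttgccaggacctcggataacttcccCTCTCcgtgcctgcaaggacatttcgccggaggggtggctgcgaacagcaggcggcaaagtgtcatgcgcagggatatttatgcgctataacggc

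For contrast, a wide lost region with neither motif in its window lies in an intron of CG4297 (chr2L:470184-470383). The kept region with the most GAGAG matches in its window, 27 in all, lies in an intron of the teneurin gene Ten-a (chrX:12090521-12090720).
CG4297, lost: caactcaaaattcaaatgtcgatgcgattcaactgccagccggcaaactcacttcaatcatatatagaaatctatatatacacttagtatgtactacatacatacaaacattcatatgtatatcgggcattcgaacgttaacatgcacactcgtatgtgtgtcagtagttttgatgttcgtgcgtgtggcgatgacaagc
Ten-a, kept: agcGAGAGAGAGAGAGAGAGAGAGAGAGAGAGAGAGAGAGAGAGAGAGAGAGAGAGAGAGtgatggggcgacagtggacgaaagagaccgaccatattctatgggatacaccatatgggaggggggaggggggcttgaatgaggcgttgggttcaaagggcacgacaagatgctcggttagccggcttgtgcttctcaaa

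GAGAG was found within 100 bp of the midpoint in 59.1% of lost regions (368 of 623), against 49.6% of kept regions (1850 of 3727) and 44.3% of all merged regions (3577 of 8083). It occurred in 21.2% of control windows placed 2 kb to each side of lost regions, against 23.2% for kept regions, and in 21.5% of all 200-bp windows of the genome. Both strands were searched and overlapping matches were counted. The longer GAGAGAG, which contains GAGAG, occurred in 24.7% of lost regions, 21.8% of kept regions and 2.44% of genome windows. A run of alternating G and A of 10 bp or more was present in 8.35% of lost regions and 8.72% of kept regions, and the longest was 38 bp in a lost region and 57 bp in a kept region. The excess of lost over kept regions lay at intermediate numbers of matches. Of all lost regions, 28.7% had 1 or 2 matches, 21.7% had 3 to 5 and 8.67% had 6 or more, against 26.9%, 13.3% and 9.5% of kept regions.

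**Figure D1:**
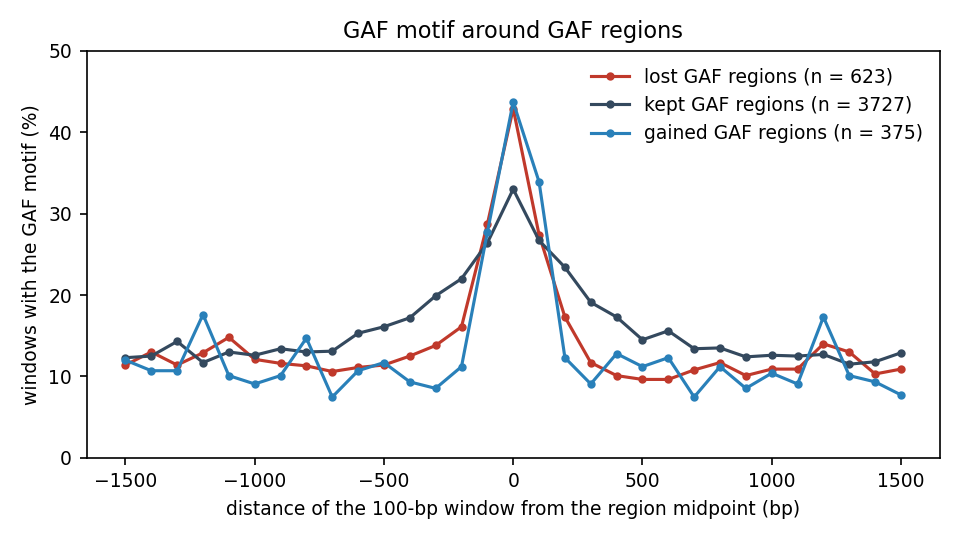
Share of 100-bp windows with a GAGAG match on either strand, plotted against the distance of the window from the region midpoint, for lost, kept and gained GAF regions. At the midpoint the share was 42.9% for lost regions, 33% for kept regions and 43.7% for gained regions, and the line of the kept regions falls off more slowly to either side.

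The motif peak was narrow at lost regions. In the central 100-bp window the share was 42.9% at lost regions and 33% at kept regions, and it had dropped to 13.8% and 11.7% at 300 bp to either side of lost regions, against 19.9% and 19.1% at kept regions. The comparison depends on the window, because kept regions are wider. With 250 bp to either side of the midpoint, 76.1% of lost regions and 76.1% of kept regions held GAGAG, and over the whole region 79% of lost and 93.5% of kept regions did. Within every width class the share was below that of kept regions, with 62.2% of 288 lost regions against 72.3% of 401 kept regions from 400 to under 600 bp, and 28.3% of 53 lost regions against 39.4% of 2314 kept regions of 1000 bp or more. The Zelda hexamer CAGGTA was found in 4.33% of lost regions (27 of 623), 5.66% of kept regions and 4.61% of genome windows. The site TATCGATA of DREF was found in 3 lost regions (0.482%), against 1.05% of all merged regions and 0.562% of genome windows. GGTCACACT of M1BP was found in 0 lost regions, against 0.445% of all merged regions and 0.2% of genome windows. The AAGAG satellite unit in tandem was found in 3 lost regions (0.482%), against 0.285% of all merged regions and 0.087% of genome windows. These counts are small. The median GC content of the lost windows was 44.5%, against 43% for kept regions.

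The lost regions were narrow. Their median width was 489 bp (lowest 293, highest 2048), against 1271 bp for kept regions and 457 bp for gained regions. The wild-type peaks inside them had a median width of 423 bp in replicate 1 and 411 bp in replicate 2, and 68.6% and 67.8% of them were under 500 bp. In the whole wild-type lists these medians were 678 and 630 bp, and 33.8% and 37.5% of peaks were under 500 bp. Width was no criterion of the selection but is not independent of it. A wide merged region has more room to hold a mutant peak, which excludes it from the lost regions. Kept regions are also merged from peaks of both genotypes, and lost regions from wild-type peaks alone. The difference in region width is therefore partly set by the definitions. Single wild-type peaks in kept regions, free of this merging, had medians of 927 and 891 bp in replicates 1 and 2. In a list without heights a narrow peak may also be one near the calling threshold, and height was not measured here.

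The regions nearest to the selection limit by position, that is by distance to or overlap with a mutant peak, were as follows. A lost region in an intron of siz, an Arf exchange factor (chr3L:21055687-21056158), had wild-type peaks of 472 and 379 bp and adjoined a mutant peak, at a distance of 1 bp. A lost region in the 5′ UTR of CG45049 (chr3R:22726904-22727446) lay 109 bp from a mutant peak, and one in a 3′ UTR (chr3L:5650365-5651031), whose nearest TSS was that of lin-28, lay 192 bp from one. On the other side, a merged region in an intron (chr3R:29091559-29092642) was kept through an overlap of 38 bp, with peaks of 636 and 301 bp in mutant embryos and 302 and 283 bp in wild-type embryos. A second one, in an intron of Snap25 (chr3L:24174516-24175831), was not counted as lost because a 312-bp peak in mutant replicate 1 overlapped a wild-type peak by 52 bp. The last (chr3L:9406059-9406945) was set apart by a 455-bp peak in mutant replicate 1 with an overlap of 77 bp. Most lost regions were not close to any called mutant peak. Without heights, this distance does not tell how near a region was to the calling threshold in mutant embryos. The nearest mutant GAF peak was a median of 6962 bp away and at most 156824 bp, and 50 of the 623 regions (8.03%) had one within 500 bp.

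The mutant replicates differed in how many wild-type regions they missed. Of 4806 merged regions with a peak in both wild-type lists, 623 (13%) were lost, 383 had a peak in mutant replicate 1 alone and 73 in mutant replicate 2 alone. Leaving out mutant replicate 1 therefore raised the number of lost regions to 1023, and leaving out mutant replicate 2 raised it to 700. Without wild-type replicate 1 or 2 it was 1304 or 1125, since a single wild-type list then sufficed.

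Lost regions overlapped promoters at a share between those of kept and gained regions and near that of all merged regions. A promoter, taken as 1 kb to either side of a TSS, was overlapped by 57.1% of lost regions (356 of 623), against 66.4% of kept regions, 26.4% of gained regions and 52.1% of all merged regions. The median distance of the midpoint to the nearest TSS was 834 bp for lost regions, 714 bp for kept regions and 4110 bp for gained regions. At the midpoint, 277 lost regions (44.5%) were intergenic, 239 (38.4%) intronic and 67 (10.8%) in a 5′ UTR, with 16 in a 3′ UTR, 13 in a non-coding exon and 11 in a coding exon. Promoter-overlapping lost regions held GAGAG more often (68.8% of 356) than the other lost regions (46.1% of 267). Among kept regions the shares were 48.3% and 52.4%. The window at the midpoint is fixed, while 1717 of 2476 kept promoter regions were 1000 bp or wider, against 29 of 356 lost ones. These shares were not split by width, so lost and kept promoters cannot be compared directly.

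RNA polymerase II was called at few of these promoters in wild-type embryos. Pol II-Ser5P, the form found at starting and early elongating polymerase, had a peak in both lists at 17.2% of lost regions (107 of 623, 95% Clopper-Pearson interval 14.3 to 20.4%), against 60.8% of kept regions and 24% of gained regions. The share over all merged GAF regions was 45.7%. Without mutant GAF replicate 1 the share of lost regions was 26.5%. In the single Pol II-Ser5P lists it was 19.7% and 20.2% of lost regions, against 64.8% and 64.2% of kept regions. Among promoter-overlapping regions alone, Pol II-Ser5P was called in both lists at 20.8% of lost regions (74 of 356), 71.8% of kept regions and 50.5% of gained regions.

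The difference was present in each width class. At promoter-overlapping regions of 400 to under 600 bp, 23.4% of 167 lost regions had Pol II-Ser5P in both lists, against 42.1% of 197 kept regions. From 600 to under 1000 bp the shares were 19.5% of 77 lost regions and 55.7% of 548 kept regions, and at 1000 bp or more 27.6% of 29 lost regions and 80.6% of 1717 kept regions. These are shares of regions, which are not replicates, and no test was run on them. The Pol II-Ser5P lists come from wild-type embryos, so they say nothing of polymerase in the mutant.

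**Figure D2:**
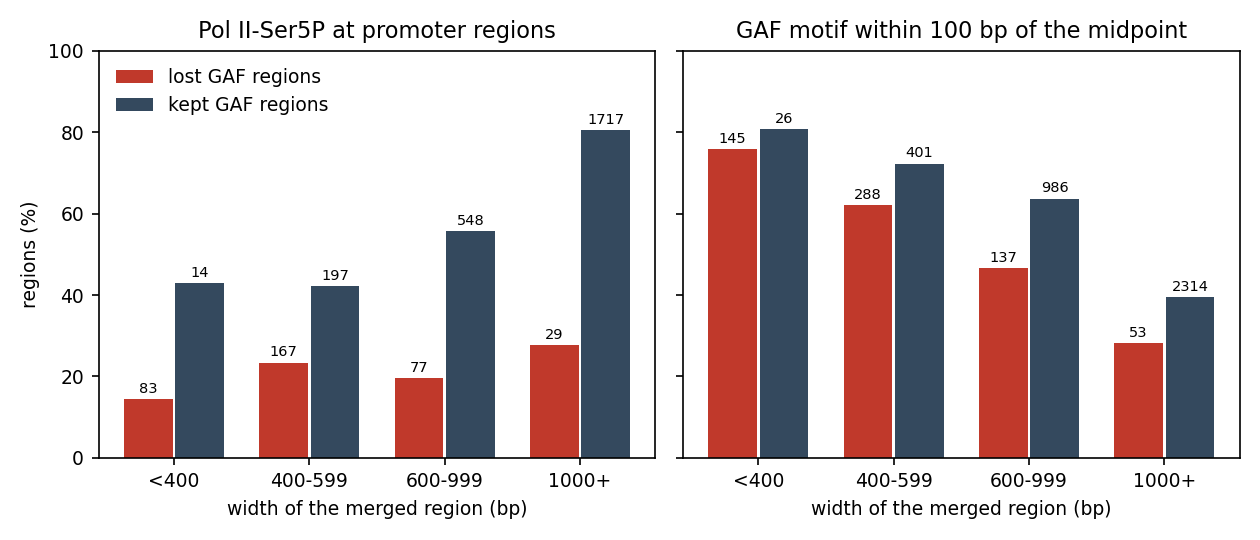
Left, share of promoter-overlapping GAF regions with a Pol II-Ser5P peak in both wild-type lists, and right, share of all GAF regions with a GAGAG match within 100 bp of the midpoint, for lost and kept regions by width of the merged region. The number over a bar is the number of regions behind it. In every width class the bar of the lost regions is lower than that of the kept regions.

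The other proteins were also called at few lost regions. dPCIF1 had a peak in both lists at 4.65% of lost regions (29 of 623, interval 3.14 to 6.62%), against 38% of kept regions and 21.3% of all merged regions. HIRA had one in both lists at 3.53% of lost regions (22 of 623, interval 2.23 to 5.3%), against 34.6% of kept regions and 20.3% of all merged regions. At gained regions the shares were 6.4% for dPCIF1 and 8% for HIRA, so low shares were not particular to lost regions. In single lists the share of lost regions was 6.42% and 5.78% for dPCIF1 and 6.58% and 6.1% for HIRA. Part of the contrast went with width. At 400 to under 600 bp dPCIF1 was called in both lists at 6.25% of lost regions, against 13.5% of kept regions, and HIRA at 3.82% of lost regions, against 11.7% of kept regions. Gained regions of that width stood at 6.02% for dPCIF1, near the lost regions, and at 12% for HIRA, near the kept regions. Of 53 lost regions of 1000 bp or more, 0 held dPCIF1 and 0 held HIRA in both lists, which allows a share of up to 5.66%, whereas 49.5% and 45.2% of 2314 kept regions of that width did. Of the 29 lost regions with dPCIF1, 27 overlapped a promoter. In all, 413 lost regions (66.3%) held no peak in any of the 10 other lists, against 881 kept regions (23.6%), 196 gained regions (52.3%) and 36.1% of all merged regions.

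**Figure D3:**
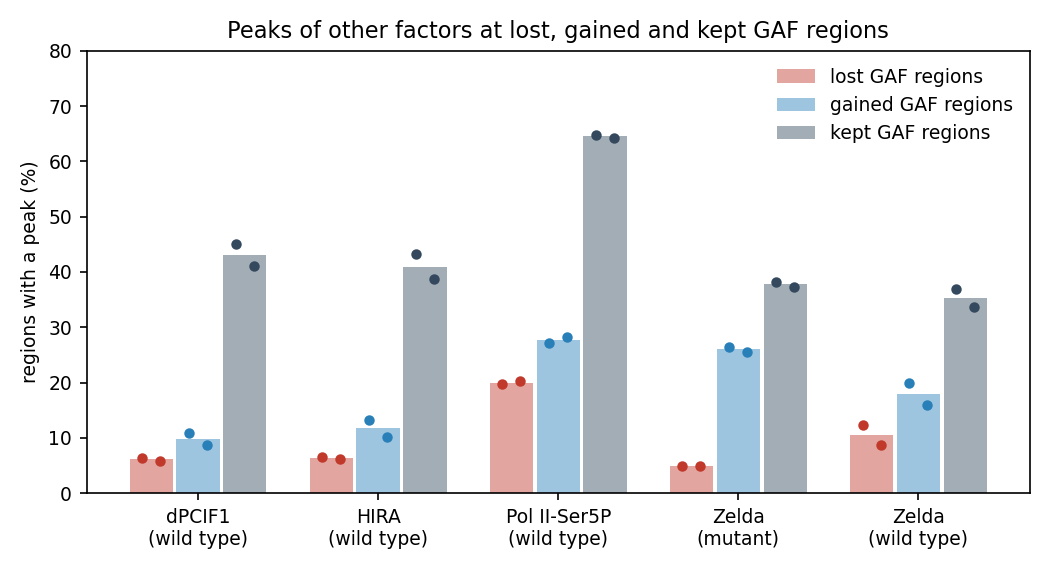
Share of lost, gained and kept GAF regions with a peak of dPCIF1, HIRA, Pol II-Ser5P or Zelda. Bars show the mean of the replicate lists and points the 2 lists. Lost regions have the lowest bar for every protein, with 4.98% in both mutant Zelda lists and 19.7% and 20.2% in the Pol II-Ser5P lists.

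Only 5 lost regions carried dPCIF1, HIRA, Pol II-Ser5P and wild-type Zelda in both lists of each. One was in the 5′ UTR of smash (chr3R:4659461-4660264), which encodes a junctional scaffold protein. Its wild-type GAF peaks were 362 and 804 bp wide, and Zelda was called there in both mutant lists as well. Another was in an intron of CG30015 (chr2R:10843946-10844511), also with Zelda in both mutant lists. The third was at the U1 small nuclear RNA gene snRNA:U1:82Eb (chr3R:4947892-4948319), with Zelda in 1 mutant list. The other 2 were in the histone gene repeats (chr2L:21438544-21439155 and chr2L:21510763-21511227), with Zelda in neither mutant list. The histone and U1 genes have near-identical copies, so the reads behind these regions may be split among copies and they are uncertain.

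Zelda is the measurement available in both genotypes that the selection did not use. A Zelda peak was present at 4.98% and 4.98% of lost regions in mutant embryos, against 12.4% and 8.67% in wild-type embryos. The mean was 4.98% ± 0 in mutant embryos and 10.5% ± 2.61 in wild-type embryos (SD, n = 2 each), a difference of -5.54 percentage points. Both mutant lists were below both wild-type lists (two-sided exact permutation p = 0.333, the smallest that 2 against 2 lists can give). At kept regions the order was the opposite, with 38.2% and 37.3% in mutant embryos against 37% and 33.6% in wild-type embryos, a difference of 2.43 points. The difference at lost regions was -3.62 points without mutant GAF replicate 1, -3.49 points without wild-type GAF replicate 1 and -3.69 points without wild-type Zelda replicate 1. The difference at lost regions minus that at kept regions was -7.97 points (exact permutation p = 0.333). At gained regions Zelda was called at 26.4% and 25.6% in mutant embryos, against 20% and 16% in wild-type embryos.

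Most of the Zelda difference came from the Y chromosome and the chromosome ends next to the centromere. At the 121 lost regions on Y or in the 5 Mb of a large arm next to its centromere, Zelda was called at 4.13% and 5.79% in mutant embryos, against 33.1% and 18.2% in wild-type embryos. At the other 502 lost regions the shares were 5.18% and 4.78% in mutant embryos, against 7.37% and 6.37% in wild-type embryos, a difference of -1.89 points. Restricting Zelda to peaks of at least 500 bp also shrank the difference, to -0.803 points (3.69% and 3.05% in mutant embryos, 4.17% and 4.17% in wild-type embryos). At kept regions on Y or next to a centromere the mutant lists were also lower, with 32.1% and 29.3% in mutant embryos against 35.2% and 32.4% in wild-type embryos, while at the other kept regions they were higher (38.8% and 38.1% against 37.2% and 33.7%). The split by position was chosen after the data were seen.

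The fate of Zelda was then followed region by region. Zelda was called in both wild-type lists at 45 lost regions (7.22%), against 29.5% of kept regions and 19.4% of all merged regions, and in both mutant lists at 24 lost regions (3.85%), against 22.4% of all merged regions. Of the 45 lost regions, 22 (48.9%) had Zelda in neither mutant list, 2 in 1 mutant list and 21 in both. Of 1101 kept regions with Zelda in both wild-type lists, 33 (3%) had it in neither mutant list and 1017 (92.4%) in both. Kept regions were wider (median 1271 bp, against 489 bp for lost regions), which leaves more room for a mutant Zelda peak to overlap. The fate of Zelda was not split by width. Over all merged Zelda regions, 3.67% were lost and 7.45% gained by the same rule. A lost Zelda region overlapped 22 lost GAF regions (3.53%), against 43 kept GAF regions (1.15%), and a gained Zelda region overlapped 1 lost GAF region (0.161%), against 157 kept GAF regions (4.21%).

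The lost GAF regions with and without Zelda in the mutant were then set side by side, as small counts with no test. Of the 22 without, 13 were on Y or next to a centromere, 4 of these in the histone gene repeats and so uncertain, 7 overlapped an annotated transposable element, 6 overlapped a promoter and 4 held GAGAG near the midpoint. Of the 21 with Zelda in both mutant lists, 2 were on Y or next to a centromere, 1 overlapped a transposable element, 8 overlapped a promoter and 7 held GAGAG. Outside Y and the centromere ends, Zelda was in neither mutant list at 9 of 28 lost regions (32.1%), against 23 of 1003 kept regions (2.29%). On Y or next to a centromere it was in neither mutant list at 13 of 17 lost regions (76.5%), against 10 of 98 kept regions (10.2%). Among those 9 were introns of lbk (chr2R:16159894-16160519) and of foxo, the insulin-responsive forkhead factor (chr3R:14060125-14061495, wild-type GAF peaks of 425 and 1334 bp). Among those with Zelda in all 4 Zelda lists were the ftz promoter, an intron of pros and an intergenic region 4321 bp from the TSS of the gap gene tll (chr3R:30856400-30856872).

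The lost regions were spread over all chromosomes, but unevenly. As a share of the regions in both wild-type lists, 14.3% were lost on 2L, 2R, 3L and 3R together (555 of 3883), with 13.9% to 14.8% on the single arms. The share was 6.57% on X (55 of 837), 3.57% on the fourth chromosome (2 of 56) and 36.7% on Y (11 of 30). In number per megabase this was 2.34 lost regions on X against 5.09 on the large autosomal arms. The arms are drawn in the assembly with the centromere at the end of X, 2L and 3L and at the start of 2R and 3R. In the 5 Mb next to the centromere, 46.2% of regions on 2R were lost (48 of 104), 22.4% on 3R (19 of 85), 13.3% on 2L, 12.9% on 3L and 12% on X. In the rest of the arms the share was 11% on 2R, 13.6% on 3R, 14.1% on 2L, 14.2% on 3L and 5.76% on X. These ends are rich in repeats. An annotated transposable element was overlapped by 38 lost regions (6.1%), against 8.1% of kept regions, 28.3% of gained regions and 9.7% of all merged regions, and 1360 was the commonest, with 11 copies.

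Neighbouring GAF regions were often lost together. Another lost region was next in order along the chromosome for 207 of the 623 lost regions (33.2%), and for 145 (23.3%) it was also within 10 kb. Of the 1244 neighbours of lost regions, 18.3% were themselves lost, against 7.71% of all merged regions, and 3.22% were gained, against 4.64% of all merged regions. Around lost regions away from the centromere ends on X and the large autosomal arms, 16.6% of neighbours were lost. There were 93 runs of 2 or more lost regions, of which 79 held 2, 11 held 3, 2 held 4 and 1 held 8.

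The longest run stood at the centromere end of 2R (chr2R:15043-34117), in a stretch with no annotated gene. Its 8 regions spanned 19075 bp and held no GAGAG within 100 bp of their midpoints. The widest lost region of all, by its mean wild-type peak, was among them (chr2R:20055-22102), with wild-type peaks of 1684 and 1803 bp and Zelda in both wild-type lists but no mutant list. The second run lay on Y (chrY:920981-936122), with 4 regions near a copy of the Su(Ste) repeats, which give rise to piRNAs against Stellate. A wild-type Zelda peak was present in 1 list at each of these 4. The third run covered ken and ended beyond it (chr2R:23870164-23910680), with 4 regions over 40517 bp. Its members had wild-type peaks of 469 and 533 bp, 1612 and 1274 bp, 286 and 509 bp, and 777 and 991 bp.

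The lost regions touched 582 genes, counting the gene body and 1 kb upstream, of which 529 were protein-coding. Of these genes, 226 (38.8%) still had a GAF peak in both mutant lists elsewhere in the gene, 42 in 1 mutant list and 314 (54%) in neither. No gene or upstream kilobase was touched by 118 lost regions (18.9%). The genes below are those with the most lost regions, with 3 or more each, and those of the listed pathways.

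At ken, a BTB zinc finger repressor named for its effect on the genitalia, no GAF peak was called in either mutant list, against 3 and 4 peaks in the wild-type lists. All 3 of its GAF regions were lost. One was in the 5′ UTR (chr2R:23870164-23870697) and held dPCIF1 and Pol II-Ser5P in both lists. Another, in the intron (chr2R:23871768-23873391), was the third widest of all lost regions. ATP8B, which encodes a phospholipid flippase, likewise had no mutant peak, against 3 and 3 wild-type peaks. Its lost regions lay within 1 kb of its TSSs and held 4, 3 and 1 GAGAG matches, with no peak of any other protein.

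Pdp1, a bZIP factor of the circadian clock, had 4 and 3 GAF peaks in mutant embryos, against 8 and 10 in wild-type embryos. Of its 11 merged regions, 5 were lost and 2 kept. Its widest lost region (chr3L:7847583-7848251, peaks of 604 and 655 bp) held 6 GAGAG matches. Pzl, a member of the Piezo channel family and one of the longest genes here, had 10 and 7 GAF peaks in mutant embryos, against 21 and 23 in wild-type embryos. All 7 of its lost regions were intronic, and the gene lies in the 5 Mb next to the centromere of 3R. sif, a Rac exchange factor of the synapse, had 2 and 3 peaks in mutant embryos, against 5 and 7 in wild-type embryos. mtd had 2 and 1 against 5 and 4, and lbk had 2 and 2 against 6 and 6.

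**Figure D4:**
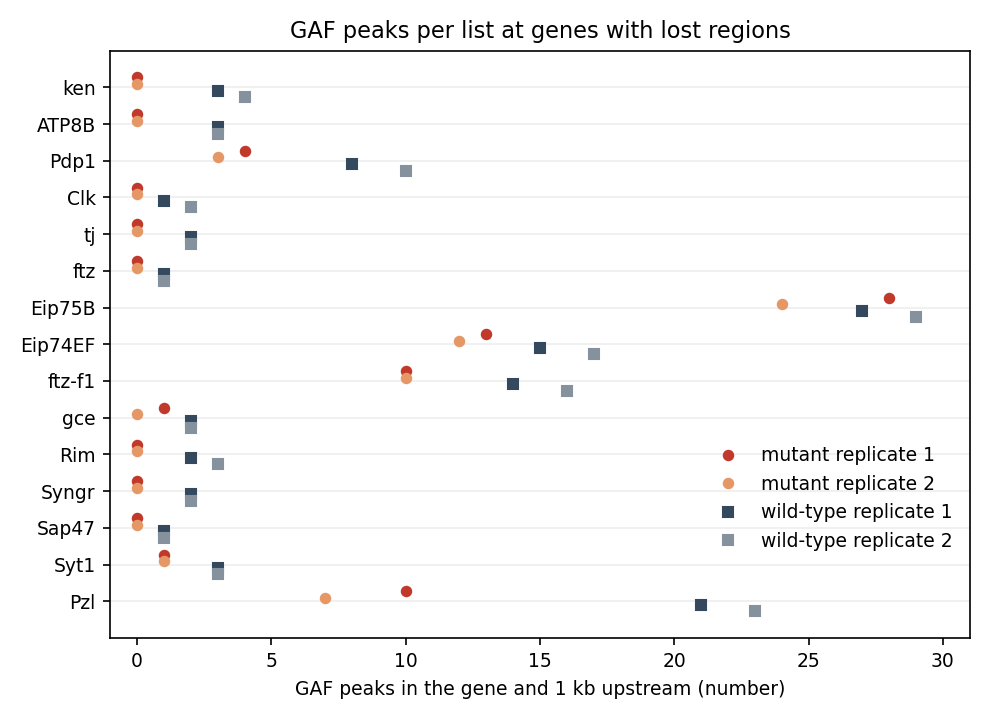
Number of GAF peaks in each gene and its upstream kilobase, with 1 point per list (circles for mutant embryos, squares for wild-type embryos). At ken, ATP8B, Clk, tj, ftz, Rim, Syngr and Sap47 both mutant lists are at 0, while at Eip75B the mutant lists (28 and 24 peaks) overlap the wild-type lists (27 and 29 peaks).

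Genes of the ecdysone and juvenile hormone pathways, which time moulting and metamorphosis, formed the list with the most merged GAF regions. At 8 of the 16 genes, 15 of 139 merged regions (10.8%) were lost, against 7.71% of all merged regions, and 73 were kept. Of its 94 regions in both wild-type lists 16% were lost, against 13% of all such regions, so the list stood near the background. Eip75B, a nuclear receptor induced early by ecdysone, had 4 lost and 16 kept regions. Its GAF peaks numbered 28 and 24 in mutant embryos, against 27 and 29 in wild-type embryos. The lost region nearest to its 5′ end (chr3L:18061683-18062305) had peaks of 537 and 622 bp and 6 GAGAG matches. Eip74EF, an ETS factor of the early response, had 3 lost and 11 kept regions, with 13 and 12 GAF peaks in mutant embryos against 15 and 17 in wild-type embryos. Its widest lost region (chr3L:17613873-17614971) had peaks of 1099 and 849 bp. ftz-f1, a nuclear receptor that sets competence for ecdysone, had 3 lost and 9 kept regions, and 10 and 10 peaks in mutant embryos, against 14 and 16 in wild-type embryos.

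The second widest of all lost regions lay in gce, a bHLH-PAS receptor of juvenile hormone (chrX:15297433-15299144), where an antisense RNA, asRNA:CR44429, also starts. Its peaks were 1705 and 1643 bp wide, it held 3 GAGAG matches, and no other protein was called there. Kr-h1, a zinc finger target of juvenile hormone, had a lost region in its 5′ UTR (chr2L:6082642-6083561, peaks of 841 and 596 bp). The transcription factor gene br had one in an intron that also holds Mur2B (chrX:1618744-1619387, peaks of 601 and 618 bp), Hr38 the region with 13 GAGAG matches shown above, and EcR, the ecdysone receptor itself, one in its 3′ UTR (chr2R:6088920-6089485, peaks of 566 and 316 bp).

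Counting the gene body and 1 kb upstream, the listed genes that pattern the early embryo held 1 lost region. The lists are not complete. For example, spz, which also acts in dorsoventral patterning, is not on them and had 2 lost regions. More distal DNA was not counted, so the lost region 4321 bp from the TSS of tll is outside these counts. In the lists of gap, pair-rule, segment polarity, Hox, dorsoventral, sex determination and cellularization genes together, 1 of 215 merged regions (0.465%) was lost, against 7.71% of all merged regions, and 129 were kept. The exception was the promoter of the pair-rule gene ftz (chr3R:6863933-6864391), its only GAF region, with peaks of 459 and 427 bp in wild-type embryos. It held Pol II-Ser5P in both lists and Zelda in all 4 Zelda lists. No lost region was found at the 36 merged regions of gap genes, the 61 of Hox genes or the 65 of dorsoventral genes. The Notch pathway genes (42 merged regions), the genes of GAF, Zelda and other pioneer or GA-binding factors (38) and the HIRA and dPCIF1 genes (4) had none either. The study names kni, twi, Ubx, Abd-B and abd-A as GAF targets. Their 34 merged regions, already counted in the gap, dorsoventral and Hox lists, are no separate result. At the HIRA and dPCIF1 genes, with 4 regions, the share over all merged regions would also give none. Of 17 merged regions at heat shock genes 1 was lost (5.88%, near the 7.71% of all merged regions), next to Hsp26 (chr3L:9376103-9376596, peaks of 494 and 272 bp). It lies between Hsp26 and CG4461 and cannot be assigned to one of them. Of 110 merged regions at axon guidance and adhesion genes 4 (3.64%) were lost, at Sema1a, Dscam2, Dscam3 and Nrx-1.

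A list of synaptic and excitability genes was drawn up after such genes had been noticed among the lost regions and is not independent of them. It held 25 lost of 99 merged regions (25.3%), against 7.71% of all merged regions. They lay at 15 of its 35 genes, with 40 regions kept. Sap47, a synaptic protein, lost its only GAF region, in the 5′ UTR and shared with blp (chr3R:15934820-15936205), which had peaks of 1225 and 1338 bp. Rim, a scaffold of the active zone, had no GAF peak in either mutant list, against 2 and 3 in the wild-type lists, and a lost region upstream of its TSS held 13 GAGAG matches (chr3R:17916504-17917030). Syngr, a synaptic vesicle protein, had none in mutant embryos, against 2 and 2. Syt1, the calcium sensor of vesicle release, had 1 and 1 against 3 and 3. The intron of Atpalpha, the sodium pump subunit, held a lost region of 1079 and 1289 bp (chr3R:20956582-20957887). Of these 25 regions, none held Zelda in both wild-type lists, against 7.22% of all lost regions, a share that would give few here. Lists of clock genes and of eggshell, yolk and follicle cell genes, drawn up in the same way, held 6 lost of 26 (23.1%) and 3 lost of 6 merged regions (50%), beside the same 7.71%. The clock regions were at Pdp1 and Clk, the others at tj and slbo, transcription factors of the ovarian follicle. No lost region was found at the chorion, vitelline membrane or yolk protein genes listed. Besides its lost regions, however, that list held only 3 kept ones, so the 7.71% share would also give none there.

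**Figure D5:**
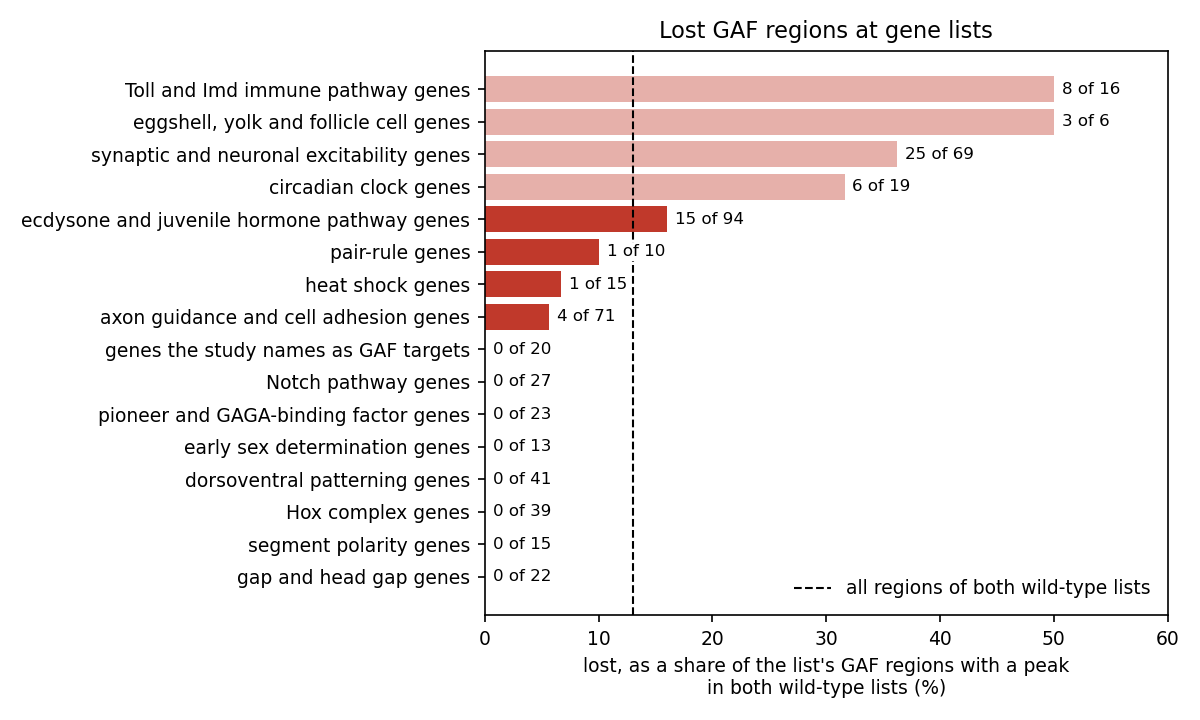
Lost GAF regions at gene lists, as a share of the regions of each list that had a peak in both wild-type lists, with the numbers beside the bars and a dashed line at 13% for all such regions. Dark bars are pathway lists chosen with earlier results of these data known, and pale bars are lists drawn up after the genes of the lost regions had been seen. Lists with fewer than 6 such regions are left out.

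The widest lost regions were a mixed set. Besides those at 2R, gce, ken, Sap47 and Atpalpha, the 10 widest included introns of CG4297 (chr2L:469330-471237, peaks of 1614 and 1246 bp), of the pyruvate dehydrogenase kinase gene Pdk (chr2R:9430721-9431923, 1192 and 1163 bp) and of stet, a rhomboid protease of the germ line (chr3L:1488757-1490010, 1064 and 1245 bp). The remaining 2 were intergenic (chr2R:24740763-24741997 and chr3R:13802347-13803848). At these 10 regions dPCIF1 was called in no list and HIRA in 1 list at 1 region, while Pol II-Ser5P was called in both lists at CG4297 and Pdk. Over all lost regions, dPCIF1 was called in either list at 7.54%, HIRA in either list at 9.15% and Pol II-Ser5P in both lists at 17.2%. The counts at the 10 widest regions are near these shares.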

How the data were processed

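Only the GAF, Zelda, dPCIF1, HIRA and Pol II-Ser5P peak lists of 14 samples were used, and the other 26 samples in the labels were not analysed here. According to the methods, the authors trimmed reads (Trimmomatic 0.39), mapped them to dm6 (Bowtie2 2.2.5), kept uniquely placed reads of quality 30 or more (SAMtools 1.18) and called peaks per replicate (MACS2 2.2.7.1, q-value 0.01). The deposited lists hold the chromosome, start and end of each peak. They were used as positions, with no height, count or q-value.

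Merging, overlaps, motif searches and the exact permutation test were run in Python 3.11.15 with numpy 2.4.6 and scipy 1.17.1, and merging, overlap, distance and motif search were tested on simulated data. Genes, TSSs and transposable elements came from Ensembl release 115 (dm6 coordinates), and 3 of 281 listed gene names had no match. Coordinates count from 1. Samples were grouped by their titles.

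The members, lists and named genes were chosen with earlier results of these data known. Named were the 10 widest lost regions, the 3 longest runs, the 10 genes with most lost regions, lost regions at listed genes, regions with peaks of all proteins, and those nearest the selection limit. Intervals cover counting over regions only. Alternatives were stricter overlaps, wider peaks, distance from mutant peaks, other windows and each replicate left out.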

Additional observations from a re-analysis of the deposited data

How the results depend on the processing

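The number of lost regions was 663 and 781 with an overlap of at least 20% and 50% of both lengths, 573 without regions that had a mutant peak within 500 bp and 502 outside Y and the 5 Mb next to a centromere. It was 334 with GAF peaks of at least 500 bp, and ranged from 700 to 1304 with each GAF replicate left out (1304 and 1125 without wild-type replicate 1 and 2, 1023 without mutant replicate 1), where fewer lists define the region by construction. The promoter share was 49.3% with 500 bp to either side of a TSS and 65% with GAF peaks of at least 500 bp, and 47.5% to 57.6% without single GAF replicates. The GAGAG share was 76.1% with 250 bp to either side, 79% over the whole region and 46.1% to 57.4% without single GAF replicates.

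A peak in either list was found at 7.54% of lost regions for dPCIF1, 9.15% for HIRA, 22.8% for Pol II-Ser5P and 13.8% for wild-type Zelda. With 1 list of the protein left out, the ranges were 5.78% to 6.42% for dPCIF1, 6.1% to 6.58% for HIRA, 19.7% to 20.2% for Pol II-Ser5P and 8.67% to 12.4% for Zelda. The Pol II-Ser5P share, in alternatives added after seeing the data, was 24.3% with GAF peaks of at least 500 bp, 19.1% outside Y and the centromere ends, and 20.9% to 26.5% without single GAF replicates, highest without mutant replicate 1. The share of lost regions next to another one was 23.3% within 10 kb.

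The Zelda difference stayed negative under all alternatives run. With a replicate block, pairing same-numbered lists, it was -5.54 points (exact sign-flip permutation p = 0.5, the smallest possible). It ranged from -7.38 to -3.69 points without single Zelda lists and from -5.07 to -3.49 points without single GAF lists, was -4.94 with GAF peaks of at least 500 bp, and was smallest with Zelda peaks of at least 500 bp (-0.803) and outside Y and the centromere ends (-1.89). With 2 lists per genotype no test here could pass a threshold of 0.05. Depth and peak height are unknown, so wider peaks were the only stricter threshold that could be tried.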

Other observations

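Genes of the Toll and Imd immune pathways also held lost regions. The list was drawn up after such genes had been seen among those without any mutant GAF peak, so its counts are a description. Of 22 merged GAF regions at its 30 genes, 8 (36.4%) were lost, against 7.71% of all merged regions, and 8 were kept. Dif, an NF-kappaB factor of the immune response, had lost regions at chr2L:17428018-17428395 (wild-type peaks of 378 and 313 bp) and chr2L:17429742-17430082 (341 and 327 bp). PGRP-LC, the receptor of the Imd pathway, had a lost region of 1297 and 764 bp in its 5′ UTR (chr3L:9339774-9341290) and a second one 718 bp from its TSS, in the 3′ UTR of PGRP-LA (chr3L:9337885-9338299). spz, the ligand of Toll in immunity and in dorsoventral patterning, was not in the dorsoventral list and had lost regions in an intron and 120 bp from its TSS (chr3R:27069950-27070430, 481 and 427 bp). The antimicrobial peptide genes Dro and AttA shared a lost region (chr2R:14746591-14747072), and Dro had another (chr2R:14745281-14745615). No lost region lay at Tl, tub, pll or cact, which act downstream of spz. Their GAF regions were not counted separately, so no share stands beside this and it cannot be read as a contrast with spz.

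Over the whole genome, 313 genes had no GAF peak in either mutant list while every region called in both wild-type lists was lost. Genes with a region in both wild-type lists were not counted, so no background share stands beside this number. Most of the 313 had a single lost region, whose absence from the mutant lists is set by the selection, and 30 had 2 or more. Among these 30 was FASN1, a fatty acid synthase gene picked after its values were seen, with a lost promoter region of 685 and 428 bp (chr2L:3056120-3056804), which it shares with FASN2, and an intronic one (chr2L:3059158-3059583).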
